A study of Mus musculus with 6 samples.

Results

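The genes described here are 45 genes of mitosis, made up of mitotic kinases with their cyclins and phosphatases, spindle checkpoint genes, partners of the anaphase complex, centromere and kinetochore genes, spindle and cytokinesis genes, and genes of mitotic chromosome structure. They were chosen by gene symbol, and 1 probe set stood for each gene, the one with the highest mean log2 intensity over the arrays. Of the 45 genes, 44 could be measured among 18194 genes in all, and Ccnb1 was not analysed here. Expression was measured on 6 arrays of mouse bone marrow cells negative for lineage markers and positive for cKit and Sca1, called LSK cells, a fraction containing blood stem cells with the first multipotent progenitors. The 3 GFP-positive and 3 GFP-negative samples came from mice of the genotype Hes1 GFP/WT aged 6 weeks, so cells of both groups carried GFP at 1 of their Hes1 alleles, Hes1 being a transcriptional repressor and Notch target, and differed by GFP signal. How the allele was built is not in the labels. Replicate 1 of each group was female and replicates 2 and 3 were male. Whether samples were separate or pooled animals is not in the labels, so the p-values rest on a spread between samples that may be technical. Of markers that define the sort, Kit lay between 9.69 and 10.72 (log2) over all arrays. The progenitor markers Cd34, Flt3 and Cd48 lay wholly lower in GFP-positive than in GFP-negative arrays. Of the same marker list, Procr lay wholly higher in GFP-positive arrays, at a log2 fold change of 0.77, and Slamf1 overlapped, at 1.41. Of 5 measured lineage markers, Ms4a1 of mature B cells was the dimmest, between 3.33 and 3.57. Cd3e lay between 5.38 and 5.98, Cd8a between 6.44 and 6.93, Itgam between 5.21 and 7.65 and Cd4 between 8.23 and 9.92. Genes of early B cells were also well above Ms4a1, with Vpreb1 between 8.70 and 12.32 and Cd79b between 8.81 and 10.48. Cd79a, Ebf1, Igll1 and Pou2af1 lay wholly higher in GFP-positive than in GFP-negative arrays. Levels below are on the log2 intensity scale, and each fold change is the GFP-positive mean minus the GFP-negative mean.

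Entry into mitosis is driven by Cdk1 bound to A and B type cyclins, which Cdc25 phosphatases switch on, together with the Aurora and Polo-like kinases. Kinetochores, built on chromatin marked by the histone variant Cenpa, attach chromosomes to the spindle, and until all are attached the spindle checkpoint holds back the anaphase-promoting complex, which then marks securin and cyclins for destruction. Most of these transcripts are made late in the cell cycle and are low in resting cells. Most long-term blood stem cells rest outside the cycle, while multipotent progenitors in the same LSK fraction divide more often.

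All 44 measured genes had a higher mean in GFP-positive than in GFP-negative arrays, where 51.3% of all genes did. Their log2 fold changes ran from 0.28 to 2.72 with a median of 1.47, against a median of 0.01 over all genes. The largest were those of Ube2c, the ubiquitin-conjugating enzyme of the anaphase complex, at 6.59-fold, of Aurka, a kinase of centrosomes and spindle poles, at 6.18-fold, and of Nusap1, a spindle microtubule protein, at 6.07-fold, by the probe sets used. None passed the test: by limma, 0 of the 44 genes had an adjusted p under 0.05 over all genes (lowest adjusted p = 0.254, for Aurka), and neither did any other gene (0%, lowest adjusted p = 0.0956). At an unadjusted p under 0.05, 28 of the 44 were higher and 0 lower, while 3.33% of all genes were higher and 3.38% lower. In 27 of the 44 every GFP-positive array lay above every GFP-negative array, which held for 5.89% of all genes, and the reverse held in 0, against 5.51%. In bulk samples such as these, more dividing cells and more mitotic RNA per cell cannot be told apart.

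GFP-negative replicate 1 stood apart from the other GFP-negative arrays in these genes. It was the highest GFP-negative array in 39 of the 44, against 32.7% of all genes, and the exceptions were Cdc25c, Bub1, Bub3, Ttk and Pttg1. The median excess of that array over the mean of GFP-negative replicates 2 and 3 was 1.34 (log2), against -0.01 over all genes. In 33 of the 44 it lay nearer to the GFP-positive mean than to the mean of the other GFP-negative arrays (50.4% of all genes), and the median distance from it up to the GFP-positive mean was 0.60. Without that array, the median log2 fold change was 1.87, 35 of the 44 genes were higher at an unadjusted p under 0.05 (3.53% of all genes) and 0 lower (3.11% of all genes). Again 0 passed after adjustment (0% of all genes, limma, lowest adjusted p = 0.132). Both remaining GFP-negative arrays then lay below all GFP-positive arrays in 40 of the 44, against 10.9% of all genes, and the groups overlapped only in Cdc25c, Ttk, Pttg1 and Smc2. Within the replicate 1 arrays, both female, GFP-positive was higher in 40 of the 44 genes, against 57.3% of all genes, with a median difference of 0.80. The 4 that were not higher there were Plk4 at -0.35, Espl1 at -0.16, Cenpn at -0.03 and Cenpe at -0.03. Within the 4 male arrays the median log2 fold change was 1.74, and 43 of the 44 were higher, against 8294 of all 18194 genes. At an unadjusted p under 0.05, 31 were higher (4.09% of all genes), and 0 passed after adjustment (limma, lowest adjusted p = 0.273). Both male GFP-positive arrays lay above both male GFP-negative ones in 40 (16.3% of all genes). The difference between the male and the female contrast passed after adjustment in 0 of the 44 genes (limma interaction, lowest adjusted p = 0.398), against 0% of all genes. At an unadjusted p under 0.05 the difference was larger in males in 13 of the 44, against 3.66% of all genes. This sets 1 female array per group against the male arrays, and the lone female arrays are assumed to vary like the male ones.

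**Figure D1:**
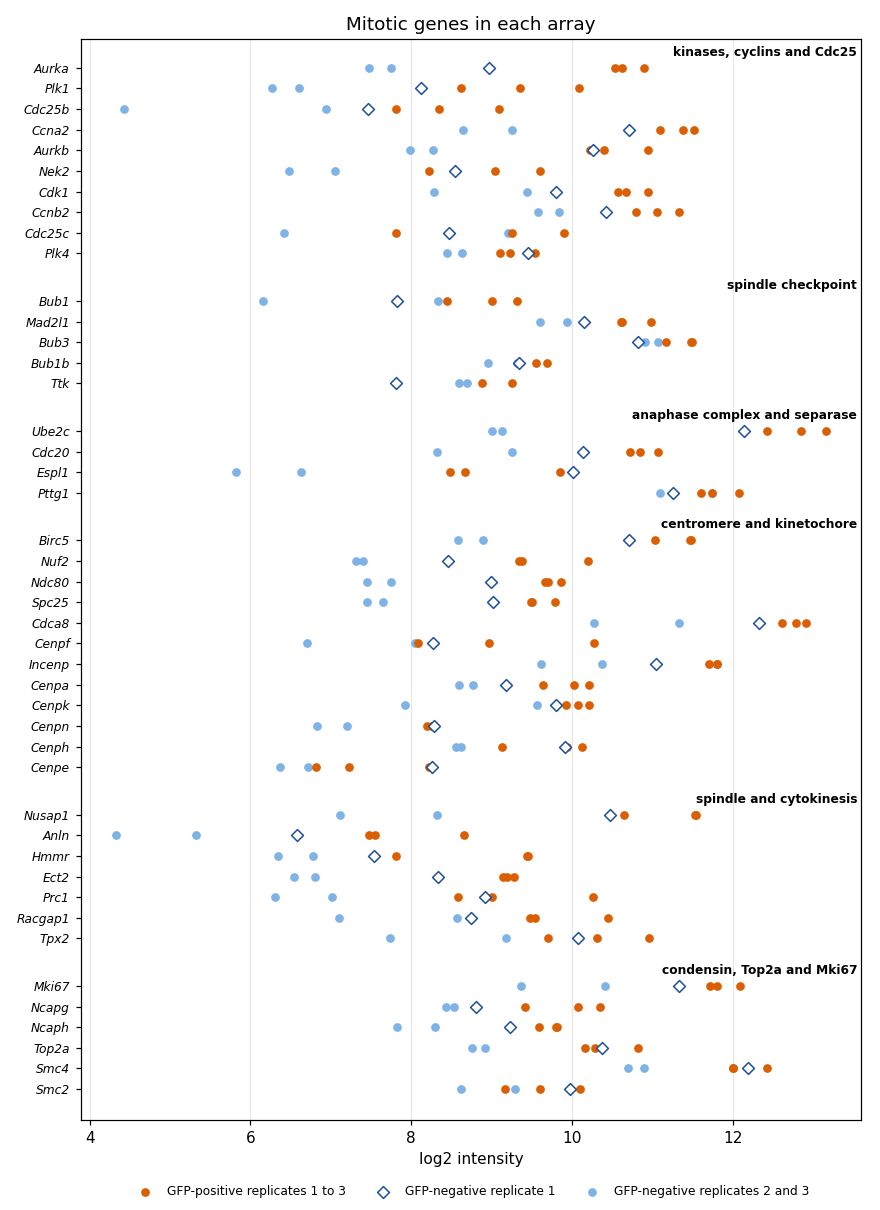
Log2 intensity (horizontal axis) of each of the 44 genes in each array, by role group and ordered within a group by fold change. Filled orange points are the 3 GFP-positive arrays, open diamonds GFP-negative replicate 1 and light blue points GFP-negative replicates 2 and 3. In most rows the open diamond lies between the light blue and the orange points, and in Espl1 it lies at the top of the row.

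The genes were also compared by promoter sequence, which played no part in their choice. RefSeq promoter sequences (GRCm38.p6, 250 bases before to 50 after the gene start) were at hand for 39 of the 45 genes, and those of Aurkb, Ccna2, Cdc25c, Incenp, Smc4 and Tpx2 were not used here. Many late cell cycle promoters hold a CHR, the cell cycle genes homology region, through which the DREAM and MuvB complexes act, and CCAAT boxes, bound by the factor NF-Y. The letters TTTGAA or TTCGAA, searched on both strands, lay within 50 bases of the start in 26 of the 39 genes (66.7%), against 6.12% of 27025 genes with promoters and 4.62% of those among them that were tested on the arrays. CCAAT, searched on both strands over the whole 300 bases, was found in 30 of the 39 (76.9%), against 41.1% of genes. A CHR match near the start together with a CCAAT match was present in 24 (61.5%), against 2.57%. The E2F letters TTCCCGC or TTCGCGC were found in 7 of the 39 (17.9%), in 6.86% of all genes and in 10.3% of those tested. The TATA letters TATAAA were found in 1 (2.56%), in 15.7% of all genes and in 11.5% of those tested. The 26 genes with a near CHR match had a median log2 fold change of 1.53 (range 0.28 to 2.72), and the 12 measured genes without one had a median of 1.13 (range 0.31 to 2.60), so the ranges overlapped. A match of letters is a description and not evidence of binding.

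To show how these letters lie beside the start, the following lines give the last 100 bases before and the first 50 bases from the start of the gene with the smallest p in each role group among those with a promoter sequence, and of Ube2c, which had the largest fold change. Each reads 5′ to 3′ along the gene, and capitals mark the CHR letters (TTTGAA or TTCGAA, and TTCAAA on the other strand) and the CCAAT letters (CCAAT, or ATTGG on the other strand).
Aurka (chr2:172370521-172370670, minus strand): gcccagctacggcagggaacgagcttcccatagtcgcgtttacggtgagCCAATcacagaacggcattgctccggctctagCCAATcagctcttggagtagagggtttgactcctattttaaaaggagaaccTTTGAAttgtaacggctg
Mad2l1 (chr6:66535121-66535270, plus strand): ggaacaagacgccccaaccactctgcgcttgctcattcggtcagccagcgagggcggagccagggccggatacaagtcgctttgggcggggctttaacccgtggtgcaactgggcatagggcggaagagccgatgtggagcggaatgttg
Cdc20 (chr4:118437294-118437443, minus strand): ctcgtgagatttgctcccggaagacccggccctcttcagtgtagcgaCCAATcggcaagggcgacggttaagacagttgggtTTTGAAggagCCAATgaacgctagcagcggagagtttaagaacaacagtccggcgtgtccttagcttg
Ube2c (chr2:164769829-164769978, plus strand): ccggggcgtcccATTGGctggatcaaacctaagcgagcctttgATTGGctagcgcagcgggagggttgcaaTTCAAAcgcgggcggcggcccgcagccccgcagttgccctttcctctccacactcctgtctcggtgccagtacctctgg
Nuf2 (chr1:169531415-169531564, minus strand): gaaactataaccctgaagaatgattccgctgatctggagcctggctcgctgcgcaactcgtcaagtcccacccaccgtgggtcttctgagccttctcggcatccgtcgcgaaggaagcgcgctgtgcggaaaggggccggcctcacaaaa
Ect2 (chr3:27153829-27153978, minus strand): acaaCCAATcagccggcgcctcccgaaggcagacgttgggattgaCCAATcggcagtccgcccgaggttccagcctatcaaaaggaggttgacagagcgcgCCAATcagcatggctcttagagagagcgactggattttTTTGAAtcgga
Ncapg (chr5:45669825-45669974, plus strand): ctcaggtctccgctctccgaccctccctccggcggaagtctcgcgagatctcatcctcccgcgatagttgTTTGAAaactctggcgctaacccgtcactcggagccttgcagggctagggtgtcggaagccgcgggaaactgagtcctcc
Counting the start base as 1, the CHR match began at 33 in Aurka, at -18 in Cdc20, at -29 in Ube2c, at 40 in Ect2 and at -30 in Ncapg. Mad2l1 and Nuf2 hold neither set of letters in the stretch shown. Ect2 has 2 promoter entries in the table, of which the first is printed.

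**Figure D2:**
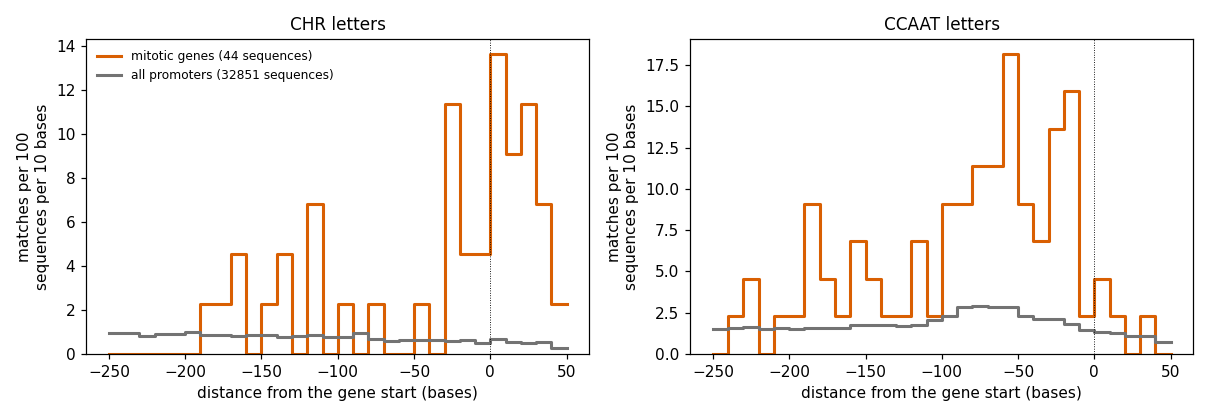
Matches per 100 promoter sequences in bins of 10 bases (vertical axis) by distance from the gene start (horizontal axis, bases), for CHR letters on the left and CCAAT letters on the right. Orange lines are the 44 promoter entries of the 39 mitotic genes and grey lines all 32851 entries, with CHR matches of the mitotic genes crowded around the start and CCAAT matches mostly before it.

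Kinases, cyclins and Cdc25 phosphatases, 10 of 11 measured, had a median log2 fold change of 1.64. At an unadjusted p under 0.05, 8 of the 10 were higher (3.33% of all genes) and 0 lower (3.38%). In 6 every GFP-positive array lay above every GFP-negative array (5.89% of all genes). Aurka was at 10.63, 10.54 and 10.90 in replicates 1 to 3 of the GFP-positive group, against 8.96, 7.47 and 7.75 in replicates 1 to 3 of the GFP-negative group. All GFP-positive arrays lay above all GFP-negative ones, with a log2 fold change of 2.63 ± 0.41 (SE, limma adjusted p = 0.254). Its CHR match lies just downstream of the start in the sequence shown above. Plk1, the Polo-like kinase that acts from mitotic entry to cytokinesis, was at 10.09, 8.61 and 9.35 in the GFP-positive arrays, against 8.12, 6.60 and 6.27 in the GFP-negative arrays. Its groups did not overlap either, and GFP-positive replicate 2 was the lowest of its group, at a log2 fold change of 2.35 ± 0.60 (SE, limma adjusted p = 0.506). Cdk1, the kinase that drives entry into mitosis, was at 10.67, 10.57 and 10.94 in the GFP-positive arrays, against 9.80, 9.44 and 8.28 in the GFP-negative arrays. The spread was wide only among the GFP-negative arrays, where replicate 3 was lowest. Ccnb2, a B type cyclin that activates Cdk1, was at 11.34, 10.80 and 11.06 in the GFP-positive arrays, against 10.43, 9.58 and 9.84 in the GFP-negative arrays, again with GFP-negative replicate 1 as the highest of its group. The log2 fold changes were 1.55 ± 0.41 for Cdk1 and 1.12 ± 0.27 for Ccnb2 (SE, limma adjusted p = 0.520 and 0.500). The other 6, Aurkb, Plk4, Nek2, Ccna2, Cdc25b and Cdc25c, ran from 0.45 for Plk4, the kinase of centriole duplication, to 2.14 for Cdc25b. By its other probe sets Plk4 was at 1.61 and 0.79. Aurkb, the kinase of the chromosomal passenger complex, overlapped when all arrays were used and not without GFP-negative replicate 1. Ccna2, the cyclin of S phase and mitotic entry, did not overlap, at a log2 fold change of 1.80 ± 0.53 (SE). Without GFP-negative replicate 1 the median of the 10 was 2.29, and Aurka was at 3.08 ± 0.21 (SE, limma adjusted p = 0.132).

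Spindle checkpoint genes had smaller differences, with a median of 0.44 over 5 genes. Mad2l1, which joins the inhibitor of the anaphase complex, was at 10.62, 10.61 and 10.98 in replicates 1 to 3 of the GFP-positive group, against 10.15, 9.60 and 9.94 in replicates 1 to 3 of the GFP-negative group. The groups did not overlap and the GFP-positive arrays lay close together, at a log2 fold change of 0.84 ± 0.21 (SE, limma adjusted p = 0.504). Bub1, a kinase that brings other checkpoint proteins to kinetochores, was at 9.0, 9.32 and 8.45 in the GFP-positive arrays, against 7.82, 8.33 and 6.16 in the GFP-negative arrays. Bub3, the partner that docks Bub1 at kinetochores, was at 11.17, 11.48 and 11.49 in the GFP-positive arrays, against 10.83, 11.07 and 10.91 in the GFP-negative arrays. Neither overlapped between the groups, and their log2 fold changes were 1.48 ± 0.59 and 0.44 ± 0.17 (SE, limma adjusted p = 0.737 and 0.700). Bub1b, which encodes BubR1 of the checkpoint inhibitor complex, was at 9.56, 9.69 and 9.33 in the GFP-positive arrays, against 9.35, 9.32 and 8.96 in the GFP-negative arrays. Ttk, the kinase Mps1 that starts checkpoint signalling, was at 8.88, 7.82 and 9.25 in the GFP-positive arrays, against 7.81, 8.60 and 8.70 in the GFP-negative arrays. Both overlapped, at 0.32 ± 0.19 and 0.28 ± 0.44 (SE, limma adjusted p = 0.890 and 0.975), and in Ttk GFP-negative replicate 1 was the lowest of all arrays. Of the 5 genes 3 were higher at an unadjusted p under 0.05 with all arrays (3.33% of all genes). Without GFP-negative replicate 1 only 1 was, Mad2l1 (3.53% of all genes), and the median was 0.39. GFP-negative replicate 1 was the highest of its group in only 2 of these 5 genes, Mad2l1 and Bub1b.

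Partners and substrates of the anaphase complex differed widely among themselves. Cdc20, the activator that the checkpoint holds back, was at 11.07, 10.72 and 10.84 in replicates 1 to 3 of the GFP-positive group, against 10.14, 9.26 and 8.32 in replicates 1 to 3 of the GFP-negative group. Ube2c was at 13.16, 12.43 and 12.86 in the GFP-positive arrays, against 12.15, 9.0 and 9.13 in the GFP-negative arrays. In both genes the groups did not overlap, and in Ube2c the GFP-negative arrays ran from 9.0 to 12.15, with replicate 1 close below the GFP-positive arrays. The log2 fold changes were 1.64 ± 0.46 for Cdc20 and 2.72 ± 0.87 for Ube2c (SE, limma adjusted p = 0.540 and 0.616), and 2.09 ± 0.33 and 3.75 ± 0.27 without GFP-negative replicate 1 (adjusted p = 0.254 and 0.132). Espl1, separase, which cuts cohesin at anaphase, was at 9.85, 8.66 and 8.48 in the GFP-positive arrays, against 10.02, 5.82 and 6.63 in the GFP-negative arrays. Here GFP-negative replicate 1 was the highest of all 6 arrays, and the groups differed by 1.51 ± 1.11 log2 units with it and 2.77 ± 0.51 without it (SE, limma adjusted p = 0.951 and 0.314). Pttg1, securin, the inhibitor of separase, was at 11.74, 12.07 and 11.60 in the GFP-positive arrays, against 11.26, 11.09 and 11.74 in the GFP-negative arrays. Its groups overlapped through GFP-negative replicate 3, at 0.44 ± 0.24 (SE, limma adjusted p = 0.863).

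Centromere and kinetochore genes, all 12 measured, had a median of 1.43. At an unadjusted p under 0.05, 7 were higher (3.33% of all genes) and 0 lower (3.38%). In GFP-positive arrays 8 lay wholly higher (5.89% of all genes). Nuf2, a subunit of the Ndc80 complex that holds microtubules, was at 9.34, 9.38 and 10.20 in replicates 1 to 3 of the GFP-positive group, against 8.46, 7.40 and 7.32 in replicates 1 to 3 of the GFP-negative group. Ndc80, its partner in that complex, was at 9.67, 9.71 and 9.87 in the GFP-positive arrays, against 9.0, 7.45 and 7.75 in the GFP-negative arrays. Both had the same order, with GFP-positive arrays on top, GFP-negative replicate 1 below them and GFP-negative replicates 2 and 3 lowest. The log2 fold changes were 1.91 ± 0.40 and 1.68 ± 0.41 (SE, limma adjusted p = 0.415 and 0.500), and Spc25, a further subunit, was at 1.56 ± 0.43. Cenpa was at 10.02, 9.65 and 10.21 in the GFP-positive arrays, against 9.17, 8.60 and 8.76 in the GFP-negative arrays. Incenp, the scaffold of the chromosomal passenger complex, was at 11.70, 11.81 and 11.80 in the GFP-positive arrays, against 11.04, 9.62 and 10.38 in the GFP-negative arrays. Neither overlapped, at 1.11 ± 0.23 for Cenpa and 1.42 ± 0.36 for Incenp (SE, limma adjusted p = 0.419 and 0.506). The other passenger subunits Birc5, survivin, and Cdca8, borealin, were at 1.93 ± 0.57 and 1.46 ± 0.51 (SE). Cenpe, a kinetochore motor protein, was at 0.31 ± 0.60 (SE, limma adjusted p = 0.980) by the probe set used and at 2.52 by its other probe set. Cenph, Cenpk and Cenpn, of the inner kinetochore that sits on Cenpa chromatin, were at 0.70, 0.97 and 0.80 (log2 fold change). GFP-negative replicate 1 was the highest of its group in 12 of the 12 genes, and without it the median was 1.75.

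Spindle and cytokinesis genes had the highest median of the role groups, 1.98 over 7 genes. Of these, 5 were higher at an unadjusted p under 0.05 (3.33% of all genes) and 5 lay wholly higher in GFP-positive arrays (5.89%). Ect2, the exchange factor that activates RhoA for the cleavage furrow, was at 9.28, 9.15 and 9.19 in replicates 1 to 3 of the GFP-positive group, against 8.34, 6.81 and 6.55 in replicates 1 to 3 of the GFP-negative group. The GFP-positive arrays lay close together (SD 0.07), and the groups differed by 1.98 ± 0.47 log2 units (SE, limma adjusted p = 0.490). Anln, anillin, a scaffold of the contractile ring, was at 8.66, 7.47 and 7.54 in the GFP-positive arrays, against 6.58, 4.33 and 5.32 in the GFP-negative arrays. Hmmr, a microtubule-binding protein of spindle poles, was at 9.44, 7.81 and 9.45 in the GFP-positive arrays, against 7.54, 6.78 and 6.34 in the GFP-negative arrays. Racgap1, which brings Ect2 to the central spindle, was at 10.45, 9.48 and 9.54 in the GFP-positive arrays, against 8.74, 7.10 and 8.57 in the GFP-negative arrays. None of these 3 overlapped between the groups, and in all 3 GFP-negative replicate 1 was the highest of its group. Their log2 fold changes were 2.48 ± 0.63 for Anln, 2.01 ± 0.54 for Hmmr and 1.68 ± 0.51 for Racgap1 (SE, limma adjusted p = 0.509, 0.528 and 0.592). Nusap1, Prc1, which bundles midzone microtubules, and Tpx2, the activator of Aurora A, ran from 1.33 to 2.60. Without GFP-negative replicate 1 the median of the 7 was 2.53, and Ect2 was at 2.53 ± 0.19 (SE, limma adjusted p = 0.132).

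Genes of mitotic chromosome structure and Mki67 had a median of 1.18 over 6 genes. Of these, 3 were higher at an unadjusted p under 0.05 (3.33% of all genes) and 3 lay wholly higher in GFP-positive arrays (5.89%). Ncapg and Ncaph are subunits of condensin, which compacts chromosomes. Ncapg was at 10.35, 9.42 and 10.08 in replicates 1 to 3 of the GFP-positive group, against 8.80, 8.43 and 8.53 in replicates 1 to 3 of the GFP-negative group. Ncaph was at 9.82, 9.59 and 9.80 in the GFP-positive arrays, against 9.23, 7.82 and 8.29 in the GFP-negative arrays. Both were apart between the groups, at 1.36 ± 0.27 for Ncapg and 1.29 ± 0.37 for Ncaph (SE, limma adjusted p = 0.412 and 0.545). Mki67, the Ki-67 protein that coats mitotic chromosomes and marks cycling cells, was at 12.09, 11.72 and 11.81 in the GFP-positive arrays, against 11.34, 10.41 and 9.37 in the GFP-negative arrays. Top2a, which untangles sister chromatids, was at 10.82, 10.16 and 10.28 in the GFP-positive arrays, against 10.38, 8.75 and 8.92 in the GFP-negative arrays. Mki67 did not overlap and Top2a overlapped through GFP-negative replicate 1, at 1.50 ± 0.49 and 1.07 ± 0.47 (SE, limma adjusted p = 0.636 and 0.778). The condensin core genes Smc2 and Smc4, at 0.33 and 0.89 by the probe sets used, overlapped as well. By its other probe sets Smc2 was at 1.23, 1.18, 0.57 and -0.06.

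**Figure D3:**
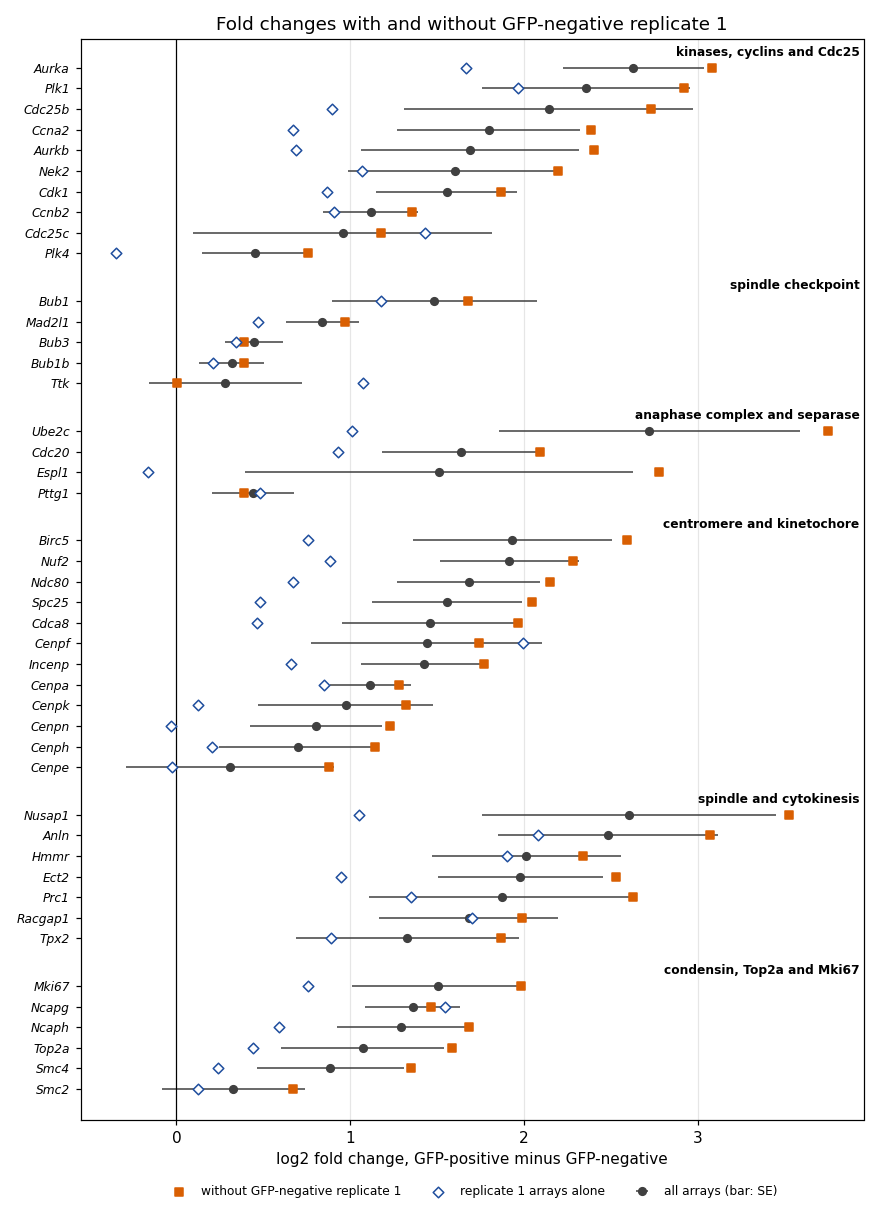
Log2 fold change, GFP-positive minus GFP-negative (horizontal axis), of each of the 44 genes. Black points with bars are the fit to all arrays with its SE, orange squares the fit without GFP-negative replicate 1, and open diamonds the difference between the replicate 1 arrays. Black points lie between 0.28 and 2.72, and open diamonds lie left of 0 in 4 genes.

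Of the 44 genes, 31 had several probe sets, and in 24 of these every probe set had a positive fold change. In Nek2, Pttg1, Incenp, Cenpa, Cenpk, Top2a and Smc2 at least 1 probe set lay below 0, between -0.33 and -0.06 (log2). The size of a difference, and so the order of the genes, turned on the probe set in several cases. Aurka was at 2.63 by the probe set used and at 0.04 by its other one, and at 1.33 by the mean of both (limma adjusted p = 0.330). The other one was dimmer, at 5.41 to 6.03 over all arrays, against 7.47 to 10.90 for the one used. The probe sets of Hmmr ran from 0.33 to 3.66, those of Nek2 from -0.18 to 2.45, those of Cenpf from 0.11 to 2.57, those of Nusap1 from 0.58 to 2.60 and those of Racgap1 from 0.01 to 1.78. The Racgap1 probe set at 0.01 was dim, between 2.52 and 3.12 over all arrays, while the Hmmr one at 0.33 lay between 6.27 and 8.20. The arrays of the GFP-negative group also spread more: the SD was larger in GFP-negative than in GFP-positive arrays in 39 of the 44 genes, against 40.8% of all genes. The median SD of the 44 was 0.32 in GFP-positive arrays and 0.87 in GFP-negative arrays (n = 3 each), and 0.29 between GFP-negative replicates 2 and 3 alone.

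Other genes of the cycle were set beside these. For the counts that follow, 51.3% of all genes had a positive fold change and 5.89% lay wholly higher in GFP-positive arrays. At an unadjusted p under 0.05, 3.33% of all genes were higher and 3.38% lower. Of 60 measured further mitotic genes 56 had a positive fold change, 26 reached an unadjusted p under 0.05, all of them higher, 24 did not overlap, and the median was 0.82. The smallest p-values there were those of Cenpl, of the inner kinetochore, at 1.94 ± 0.30, and of Ckap2l, a spindle protein, at 1.96 ± 0.31 (SE, limma adjusted p = 0.254 and 0.255). The 4 below 0 were each within their SE of 0. They were Wee1, the kinase that restrains Cdk1, at -0.03 ± 0.18, Cenpo at -0.04 ± 0.92, Cenpq at -0.004 ± 0.30 and Ncapd3 at -0.23 ± 0.27 (SE). The 17 subunits and regulators of the anaphase complex itself had a median of 0.06, with 10 above 0 (58.8%). Only 1 (5.88%), Anapc11, the RING finger subunit, was higher at an unadjusted p under 0.05. Anapc11 was at 1.18 ± 0.25 and Ube2s, which extends ubiquitin chains, at 0.74 ± 0.32 (SE, limma adjusted p = 0.420 and 0.765). The probe sets of Anapc11 ran from -0.51 to 1.18 and those of Ube2s from -0.12 to 0.74. S phase genes had a median of 0.28 over 40 genes, with 35 above 0, 6 at an unadjusted p under 0.05 and higher, and 7 without overlap. Tk1, thymidine kinase, was at 0.95 ± 0.20 and Ccne1, a G1 cyclin, at 1.18 ± 0.27 (SE, limma adjusted p = 0.424 and 0.457). Within the replicate 1 arrays GFP-positive exceeded GFP-negative in 13 of the 40 S phase genes, against 57.3% of all genes, and the median difference was -0.16. In promoters, E2F letters were found in 21 of 34 S phase genes (61.8%) and a near CHR match in 4 (11.8%), while a near CHR match was found in 18 of 52 further mitotic genes (34.6%) and 1 of 16 genes of the anaphase complex (6.25%). Transcription regulators of these genes had a median of 0.26 over 21 genes, of which 2 were higher and 1 was lower at that unadjusted threshold. E2f8, a late acting E2F repressor, was at 1.41 ± 0.35, the pocket protein gene Rbl1 at 0.75 ± 0.27 and Rbl2, the pocket protein of the DREAM complex in resting cells, at -0.47 ± 0.17 (SE, limma adjusted p = 0.504, 0.667 and 0.667). The probe sets of Rbl1 ran from -0.53 to 0.75, so its direction turned on the probe set. Those of E2f8 ran from 0.86 to 1.41 and those of Rbl2 from -0.47 to -0.02. Rbl2 was named after its values were seen.

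**Figure D4:**
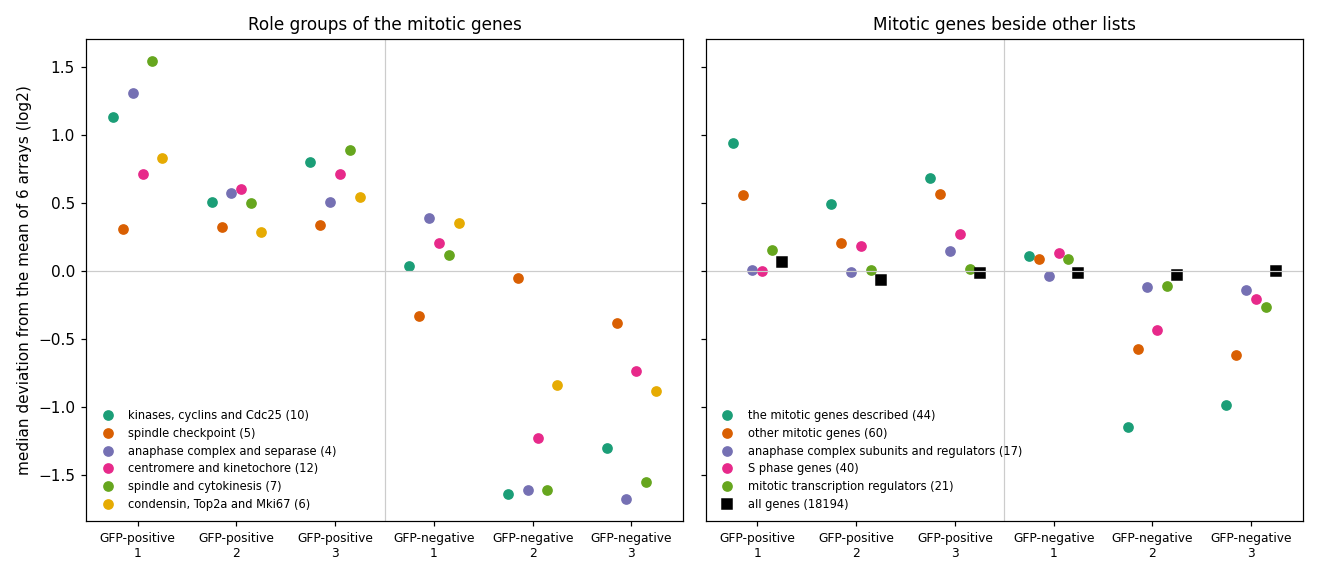
Median deviation of each gene list from the mean of the 6 arrays (vertical axis, log2) in each array (horizontal axis), with the role groups on the left and the 44 mitotic genes beside other lists and all genes on the right. The number of genes is in brackets. The 44 genes sit between 0.49 and 0.94 in the GFP-positive arrays, at 0.11 in GFP-negative replicate 1 and at -1.15 and -0.99 in GFP-negative replicates 2 and 3, while all genes stay between -0.07 and 0.07.

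Markers of other cells differed between the groups as well, and their part in the result was not tested. Over all genes 51.3% had a positive fold change, 5.89% lay wholly higher in GFP-positive arrays and 5.51% wholly lower. Of 6 measured LSK markers 2 had a positive fold change, and in GFP-positive arrays 3 lay wholly lower and 1, Procr, wholly higher. Their summed intensities were 9627 to 13190 in GFP-positive and 15710 to 17110 in GFP-negative arrays. Of 10 measured erythroid markers 9 had a positive fold change and 6 did not overlap, and their summed intensity lay between 5444 and 7579 in GFP-positive and between 1051 and 1448 in GFP-negative arrays. The hemoglobin gene Hba-a1 and Alas2, of late red cell precursors, stayed between 3.94 and 5.40 (log2) in all arrays. Of 8 B cell markers 8 had a positive fold change and 5 did not overlap, with sums of 3039 to 10810 in GFP-positive and 1173 to 2602 in GFP-negative arrays. Of 11 monocyte and macrophage markers 9 had a positive fold change and 6 lay wholly higher in GFP-positive arrays. Csf1r, of the same list, lay wholly lower, at a log2 fold change of -2.20 ± 0.40 (SE, limma adjusted p = 0.3385). Sums of the 11 were 3492 to 7275 in GFP-positive and 2086 to 3551 in GFP-negative arrays. Of 7 megakaryocyte markers 6 had a positive fold change and 5 lay apart, with sums of 6296 to 8033 in GFP-positive and 1428 to 2866 in GFP-negative arrays. In GFP-negative replicate 1 the erythroid sum was 1435 and the B cell sum 1173, and in GFP-negative replicates 2 and 3 they were 1051 and 1448 for erythroid and 2602 and 2493 for B cell markers. The megakaryocyte sum was 2866 in GFP-negative replicate 1, above the 1561 and 1428 of GFP-negative replicates 2 and 3. The neutrophil sum was also highest there, at 16510 against 12140 and 13950. The monocyte and macrophage sum was lowest there, at 2086 against 3551 and 2308. The neutrophil markers S100a8 and S100a9 were high in both replicate 1 arrays, at 11.17 and 12.28 in the GFP-positive one and at 10.62 and 11.02 in the GFP-negative one, and lay between 6.47 and 9.11 in the others. Of all 9 neutrophil markers 7 had a positive fold change and 2 did not overlap, and the sums were 13380 to 31830 in GFP-positive and 12140 to 16510 in GFP-negative arrays. Sums of 10 endothelial markers, 9 of them with a positive fold change and 2 apart, were 11500, 4467 and 2426 in the 3 GFP-positive arrays and 2755 to 4186 in GFP-negative arrays, and the median of the 44 mitotic genes was 1.32 without GFP-positive replicate 1. Stromal marker sums were 8046 in GFP-positive replicate 1 and 1180 to 1365 in the other GFP-positive arrays, against 911.6 to 1659 in GFP-negative arrays.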

How the data were processed

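Samples were grouped by the labels into 3 GFP-positive and 3 GFP-negative arrays, made from 5 ng of total RNA each, per the labels' protocols. The authors deposited 1 intensity per probe set on a linear scale for 45101 probe sets, made with RMA, per the submitters' processing notes, and its version is not given in the sources used here. The RMA method normally includes quantile normalization, which can remove changes shared by most genes, and it can compress differences of dim probe sets. Array medians lay between 74 and 78.49, and log2 was taken with no further normalization. Of the probe sets, 34958 carried 1 gene symbol in the platform's annotation, 932 several and 9211 were not listed. Keeping 1 probe set per gene left 18194 genes, dim ones included. Groups were compared with limma 3.58.1 (lmFit and eBayes, R 4.3.3), two-sided, without covariates, with Benjamini-Hochberg adjustment over all genes and a threshold of 0.05. The pipeline was tested on simulated data. Figures used matplotlib 3.10.9.

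The genes, role groups, other lists and tests were chosen with earlier results of these data known. Named genes were, in each role group, the 4 of smallest p (all in groups of 5 or fewer) and, in the other lists, the 2 of smallest p, with other genes of the 45 given by fold change. The number of arrays limits the precision. Correlations between arrays lay between 0.92 and 0.95, so none was a copy of another. Lists of LSK, lineage, plasma cell and stromal markers were measured as well. Of 6 LSK markers 2 had a positive fold change and of 5 lineage markers 1, against 51.3% of all genes. Of 7 plasma cell markers 3 had a positive fold change and of 7 stromal markers 5.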

Additional observations from a re-analysis of the deposited data

How the results depend on the processing

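Each result was recomputed under 19 alternatives. The number of the 44 mitotic genes past an adjusted p of 0.05 was 0 in all of them. Over all genes, 1 gene passed when genes under the 40th percentile of the mean were dropped and 2 when those under the 60th were, which left 39 of the mitotic genes, and omitting each array in turn gave 0 to 5, the 5 without GFP-positive replicate 3. Omitting each array in turn gave medians of the mitotic genes from 1.19 to 1.87, 19 to 35 genes higher at an unadjusted p under 0.05 (2.57% to 3.76% of all genes) and 27 to 40 without overlap between groups (9.46% to 14.2% of all genes, against 5.89% with all arrays, since smaller groups overlap less often), with the highest of the mitotic genes' values without GFP-negative replicate 1 in each case. Under the other alternatives, the male arrays alone included, the median lay between 1.35 and 1.74. Ttk ranged from -0.0196 (without GFP-positive replicate 3) to 0.6988 with each array omitted in turn and turned to -0.11 in the male arrays alone, and Ube2s to -0.12 with its probe set of largest variance. The other 621 of 624 values of 33 named genes kept their direction and did not pass. With the replicate number as a block, 32 of the 44 genes were higher at an unadjusted p under 0.05 (3.66% of all genes), 0 passed after adjustment (lowest adjusted p = 0.368) and the median was 1.47. The deviations of same-numbered arrays from their group means correlated at 0.12, 0.05 and 0.09, each array best with its own number as a hint from the data, and since not every value was above 0.1 the numbers were not taken to pair the samples. With sex as a covariate, 34 of the 44 were higher at that unadjusted threshold, against 3.63% of all genes. Arrays give no read depth, and the number of arrays and signal over background limit these values.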
